A study of Mus musculus with 6 samples.

Results

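The genes of the vacuolar proton pump (V-ATPase) and of the machinery that switches on the growth kinase complex mTORC1 at the lysosome were followed in B16F10luc2 cells, a mouse melanoma cell line. Members were all genes of the deposited table whose symbol starts with Atp6v, with Atp6ap1 and Atp6ap2 (22 genes), and 21 genes chosen by name: Lamtor1 to Lamtor5, Rraga, Rragc, Mtor, Rptor, Mlst8, Tsc1, Tsc2, Rheb, Depdc5, Nprl2, Nprl3, Castor1, Castor2, Slc38a9, Sesn1 and Sesn3. Together they were 43 of the 14883 genes in the table. A further 5 Atp6v symbols of the mouse annotation, Atp6v0c-ps1, Atp6v0d2, Atp6v1b1, Atp6v1e2 and Atp6v1g3, were not analysed here.

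RNA was sequenced from 3 samples of cells under cyclic stretch (24 h, equal in every direction of the sheet, 15% elongation, 15 cycles a minute) and from 3 samples of static cells on the same kind of elastic plate. All 6 samples were of 1 cell line in serum-containing medium. The labels do not state whether the 3 samples of a group were separate cultures. The p-values therefore describe the scatter among these 6 samples, and that scatter may be technical. The question was how expression differs between cyclic stretch and static culture.

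The V-ATPase is a rotary pump. Its cytosolic V1 ring splits ATP, its V0 ring in the membrane carries protons, and together they acidify lysosomes, endosomes and, in pigment cells, melanosomes. At the lysosome the pump contacts Ragulator, a scaffold that holds the Rag GTPases. When amino acids are sufficient the Rags bring mTORC1 to the lysosomal surface, where the GTPase Rheb activates it, while the TSC complex switches Rheb off and the GATOR1 complex switches the Rags off.

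Total counts were 20494344 to 36351400 in stretched and 19469286 to 30042222 in static libraries. By edgeR's quasi-likelihood test, with calls made below an adjusted p of 0.05, 50.9% of the 12377 tested genes were called, 24.9% higher and 25.9% lower under stretch, so a call by itself was common. Higher genes made up 49% of the calls, against 63.2% when libraries were scaled by size alone. All 8 melanocyte lineage markers (Mitf, Sox10, Tyr, Tyrp1, Dct, Pmel, Mlana and Gpnmb) were in the table, and their summed level was 25215 to 25944 CPM (counts relative to the TMM-adjusted size of their library) in stretched and 29808 to 32260 CPM in static libraries. Markers of other cells were low: leukocyte genes (2 of 6 listed genes in the table) summed to 1.15 to 1.37 CPM in stretched and 1.16 to 1.49 CPM in static libraries, and fibroblast genes (5 of 6) to 16 to 17.3 CPM in stretched and 13.3 to 18.4 CPM in static libraries. Endothelial and epithelial genes (1 of 4 each) stayed between 0.266 and 0.77 CPM, and genes of osteoclasts and renal acid-secreting cells (1 of 5) between 0 and 0.136 CPM.

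V-ATPase mRNAs were lower under stretch across nearly the whole pump, whereas fewer genes of the mTORC1 machinery changed. Of 20 tested V-ATPase genes 17 fell (85%, against 25.9% of all tested genes), and 0 rose in edgeR, at an unadjusted p under 0.05, in DESeq2 and in limma-voom alike. The median log2 fold change of the 20 genes was -0.26, against 0.00 over all genes tested. The 20 include the pseudogene Atp6v0c-ps2. Without it 17 of 19 fell (89.5%), with a median of -0.27. Of 21 genes of the mTORC1 machinery 6 fell (28.6%), a share close to that of all genes, and 2 were called higher (9.52%, against 24.9% of all genes). These 2, Mtor and Tsc1, were called by limma-voom but not by DESeq2, with no count filter or with a replicate block, and at most 1 of them was called when any single library was left out. The median log2 fold change of all 21 genes of the mTORC1 machinery was -0.09. The falls ran between 1.08-fold and 1.58-fold for the V-ATPase and between 1.1-fold and 1.34-fold for the mTORC1 machinery. Against a null of 1.2-fold with edgeR's glmTreat, 4 V-ATPase genes (Atp6v0a1, Atp6v0d1, Atp6v0b and Atp6ap1) and 2 of the mTORC1 machinery (Lamtor1 and Sesn3) stayed lower and 0 members were higher, where 12.9% of all genes passed (5.49% higher and 7.38% lower). Among genes with at least 5 CPM in 3 libraries, where 57.7% of genes were called, 28.4% higher and 29.3% lower, the counts of lower members were again 17 and 6. In bulk samples a lower level in each cell and fewer cells with a high level cannot be told apart.

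**Figure D1:**
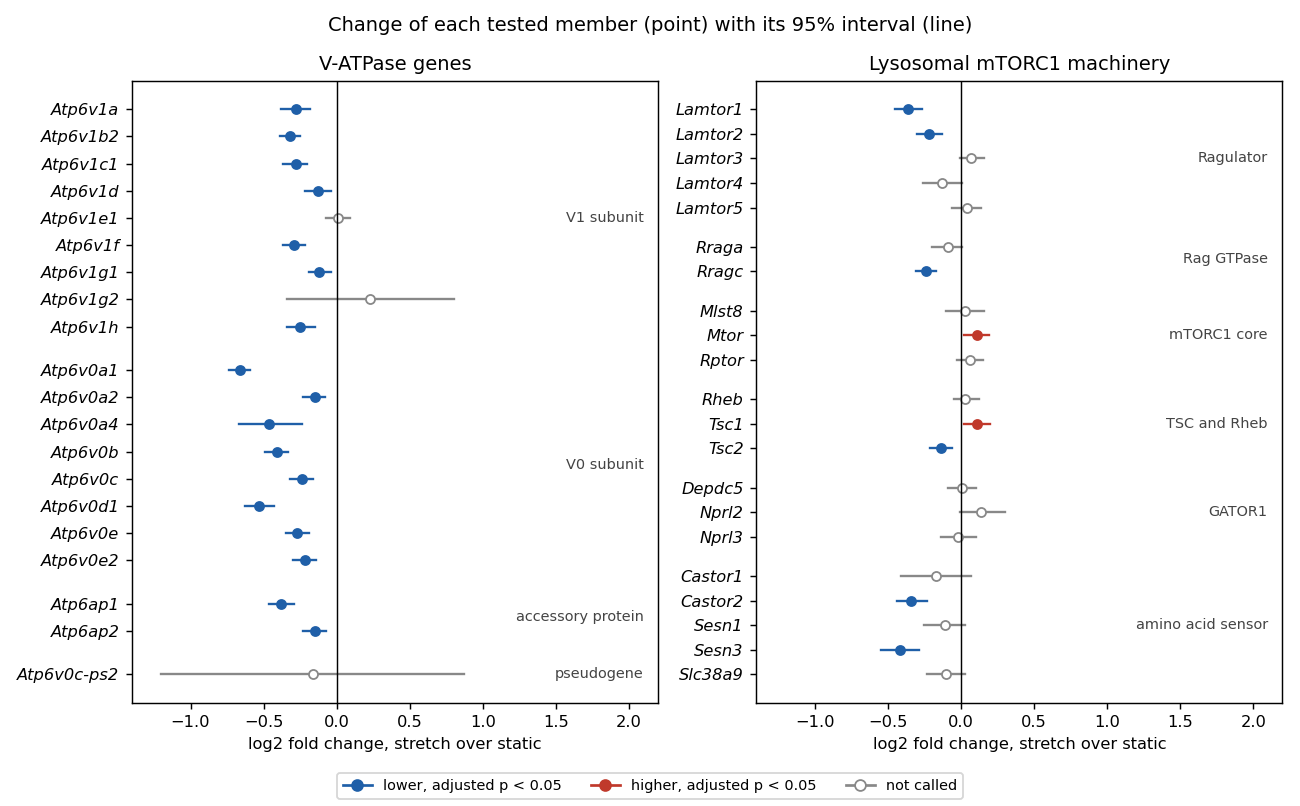
Log2 fold change (stretch over static) of each of the 41 tested members, by role, with its 95% interval from edgeR's fit. Filled points passed an adjusted p of 0.05; the 8 V0 genes all lie left of 0, while the mTORC1 core, TSC, Rheb and GATOR1 genes lie between -0.14 and 0.14.

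Many lysosomal genes carry an E-box read by the MiT/TFE transcription factors, so the promoters were searched for its letters on both strands. RefSeq promoters of GRCm38.p6 (250 bases before to 50 after the start) were given for 36 of the 43 members. CACGTG stood in 4 of 16 V-ATPase genes with a promoter (25%) and in 4 of 20 genes of the mTORC1 machinery (20%), against 11.8% of tested genes. TCACGTGA, which contains CACGTG, stood in 3 V-ATPase genes (18.8%) and in 0 genes of the mTORC1 machinery, against 2.29% of tested genes. The full CLEAR element, a palindrome of 10 letters around the same core, stood in 0 members of either family, against 0.819% of tested genes. The 8 members with CACGTG were Atp6v0b, Atp6v0d1, Atp6v0e, Atp6v1a, Lamtor1 and Rragc, which fell, and Lamtor4 and Rheb, which were not called. The windows below show 5 of those that fell and Rheb, each as 80 bases read 5′ to 3′ on the gene's strand with CACGTG in capitals.
Atp6v0b: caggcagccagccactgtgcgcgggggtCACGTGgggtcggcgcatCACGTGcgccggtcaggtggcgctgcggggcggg
Atp6v0d1: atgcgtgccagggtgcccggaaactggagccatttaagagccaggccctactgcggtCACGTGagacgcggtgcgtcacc
Atp6v1a: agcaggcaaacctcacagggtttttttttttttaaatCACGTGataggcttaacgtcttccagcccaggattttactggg
Lamtor1: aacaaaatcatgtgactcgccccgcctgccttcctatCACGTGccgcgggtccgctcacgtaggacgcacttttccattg
Rragc: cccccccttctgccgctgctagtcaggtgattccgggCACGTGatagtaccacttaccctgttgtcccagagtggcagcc
Rheb: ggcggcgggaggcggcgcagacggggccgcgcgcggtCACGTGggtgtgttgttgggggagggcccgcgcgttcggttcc
The Atp6v0b window (chr4:117887314-117887393, minus strand) holds the hexamer at 36 and at 18 bases before the start. In Atp6v0d1 (chr8:105566045-105566124, minus strand) it spans the start, beginning 3 bases before it. In Atp6v1a (chr16:44139348-44139427, minus strand) it begins 131 bases before the start, in Lamtor1 (chr7:101905732-101905811, plus strand) 68, in Rragc (chr4:123917284-123917363, plus strand) 112 and in Rheb (chr5:24842415-24842494, minus strand) 96 bases before it. A match is a description of letters only, and it was present both in genes that fell and in genes that were not called.

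In the V0 ring all 8 genes of the table fell (100%, against 25.9% of all tested genes). The median of their log2 fold changes was -0.34. Atp6v0a1 (Entrez Gene 11975; chromosome 11, 101009422 to 101063719 in GRCm38.p6) encodes an isoform of the large a subunit, which lines the proton path and helps place the pump on its membrane. It had 280, 285 and 282 CPM in the stretched libraries, against 443, 465 and 433 CPM in the static libraries. Every stretched library lay below every static one, and the fall of 1.58-fold was the largest of all tested members (log2 fold change -0.66, SE 0.036, adjusted p = 2.86e-09). Atp6v0d1 (Entrez Gene 11972; chromosome 8, 105524461 to 105566064), the subunit that couples the stalk to the proteolipid ring, had 165, 177 and 174 CPM under stretch, against 240, 269 and 236 CPM in static cells. It was 1.44-fold lower (log2 fold change -0.53, SE 0.048, adjusted p = 4.58e-07), again without overlap between groups. Atp6v0b (Entrez Gene 114143; chromosome 4, 117884330 to 117887333), a proteolipid of the rotating ring, had 141, 140 and 147 CPM under stretch and 194, 192 and 182 CPM in static cells (log2 fold change -0.41, SE 0.039, adjusted p = 7.14e-07). Atp6v0a4, an isoform of the a subunit best known from kidney acid-secreting cells, was at a low level, with 5.62, 7.02 and 6.57 CPM under stretch, against 8.6, 9.21 and 8.32 CPM in static cells. The groups did not overlap (log2 fold change -0.46, SE 0.1, adjusted p = 0.00147), but its span overlaps D630045J12Rik, which had a mean of 72 CPM and a log2 fold change of 0.02.

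The other V0 genes fell by less. Atp6v0c (Entrez Gene 11984; chromosome 17, 24163865 to 24169678), the main proteolipid, was the most abundant member per length, at 388 CPM per kb under stretch and 459 CPM per kb in static cells. It averaged 997 ± 12.2 CPM in stretched and 1178 ± 59.8 CPM in static libraries (SD, n = 3 each), 1.18-fold lower. Its pseudogene Atp6v0c-ps2 had 1.18, 0.498 and 1.63 CPM under stretch, against 0.465, 0.585 and 2.38 CPM in static cells. That is too uneven for a direction. Reads of a gene and its pseudogene may be split between them by the estimation of counts, so these values do not show that the pseudogene is transcribed. Without static replicate 3 its log2 fold change was 1.09 (adjusted p = 0.0364). Atp6v0e and Atp6v0e2, isoforms of the small e subunit, were 1.21-fold and 1.17-fold lower.

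**Figure D2:**
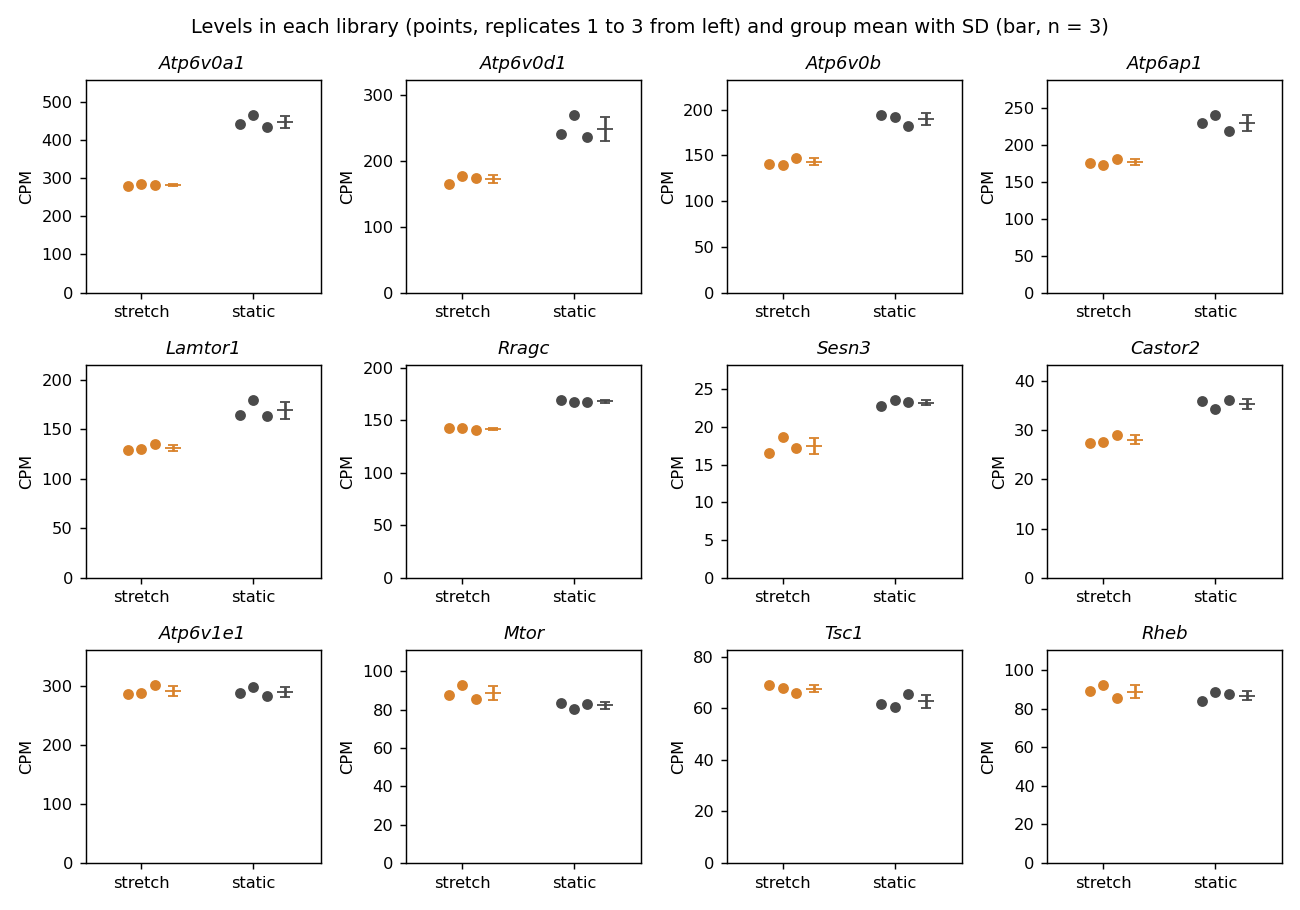
CPM of 12 members in each library (points; stretched left, static right) with the group mean and SD (bar, n = 3), on axes that start at 0. In the upper 8 panels all stretched libraries lie below all static ones; in Atp6v1e1 and Rheb the groups overlap, and in Mtor and Tsc1 the stretched libraries lie slightly higher.

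Of 9 tested genes of the V1 ring 7 fell (77.8%, against 25.9% of all tested genes). The median log2 fold change of the 9 genes was -0.25. Atp6v1b2 (Entrez Gene 11966; chromosome 8, 69088736 to 69113718), which with Atp6v1a forms the ATP-splitting head, had 269, 267 and 269 CPM under stretch, against 335, 341 and 328 CPM in static cells (log2 fold change -0.32, SE 0.033, adjusted p = 2.15e-06). Atp6v1f, a subunit of the central rotor, had 145, 140 and 151 CPM under stretch, against 177, 179 and 179 CPM in static cells (log2 fold change -0.29, SE 0.037, adjusted p = 1.22e-05). Atp6v1c1, which joins V1 to V0 and is released when the pump comes apart, had 165, 165 and 164 CPM under stretch, against 202, 212 and 190 CPM in static cells (log2 fold change -0.28, SE 0.041, adjusted p = 4.26e-05). In all 3 genes the groups did not overlap, and the stretched libraries lay closer together than the static ones in Atp6v1b2 and Atp6v1c1. Atp6v1a, the catalytic subunit, and Atp6v1h, which regulates ATP splitting, were 1.21-fold and 1.19-fold lower.

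Smaller falls were found for Atp6v1d, a rotor subunit, at 127 ± 6.22 CPM in stretched and 139 ± 2.99 CPM in static cells, and for Atp6v1g1, of the peripheral stalk, at 310 ± 6.69 CPM in stretched and 336 ± 8.85 CPM in static cells. Both lost their call with scaling by library size alone (adjusted p = 0.165 and 0.142). Without stretch replicate 1 the adjusted p was 0.063 for Atp6v1d and 0.0695 for Atp6v1g1, and without stretch replicate 2 it was 0.095 and 0.058. Atp6v1e1, the partner of Atp6v1g1 in the stalk, was the only abundant V1 gene that was not called. It had 286, 289 and 301 CPM under stretch, against 288, 299 and 284 CPM in static cells, with a 95% interval of its log2 fold change from -0.07 to 0.09. Atp6v1g2, the isoform of Atp6v1g1 known from neurons, was near 1 CPM and was not called (1.02 ± 0.174 CPM in stretched and 0.855 ± 0.238 CPM in static cells). Its span overlaps that of Nfkbil1, which had a mean of 11 CPM and a log2 fold change of -0.37. Atp6v1c2 had 1 to 3 counts in each library, and Atp6v1fnb, a gene beside Atp6v1f that is no pump subunit, had 1, 2 and 1 counts under stretch and 8, 6 and 3 in static cells. Neither passed the filter on low counts.

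The mRNAs of both accessory proteins fell (100%, against 25.9% of all tested genes). Atp6ap1 (Entrez Gene 54411; chromosome X, 74297097 to 74304721), a membrane protein needed for V0 assembly, had 176, 173 and 181 CPM under stretch, against 230, 240 and 218 CPM in static cells. The groups did not overlap, and the log2 fold change was -0.38 (SE 0.04, adjusted p = 2.48e-06). Atp6ap2, also known as the prorenin receptor, was 1.11-fold lower, at 110 ± 1.29 CPM in stretched and 122 ± 4.64 CPM in static cells (adjusted p = 0.0038). In 17 of the 20 tested V-ATPase genes the groups did not overlap, against 58.5% of all tested genes. The melanocyte lineage markers listed above were also lower in sum under stretch, but not as a whole. Of the 8, Gpnmb, Tyrp1, Pmel and Dct fell (log2 fold changes -0.48, -0.31, -0.29 and -0.09), Mitf rose (0.37, adjusted p = 1.1e-06), and Sox10, Tyr and Mlana were not called (-0.07, -0.08 and -0.04). Their part in the V-ATPase result was not tested.

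Isoform genes of 1 subunit were compared by level per length, as the share of each isoform in the subunit's summed CPM per kb. Among the a subunits Atp6v0a1 made up 69, 69.5 and 69% in the stretched libraries, against 75.8, 76.2 and 75.6% in the static libraries. Atp6v0a2, an isoform found mainly on Golgi and endosomes, made up 29.3, 28.4 and 29% under stretch, against 22.4, 21.9 and 22.6% in static cells. The difference was -6.7 points for Atp6v0a1 and 6.59 points for Atp6v0a2, with no overlap, and both isoforms fell (1.58-fold and 1.11-fold). The exact two-sided permutation p was 0.1 for each, the smallest that 3 against 3 libraries allow, and 0.45 after Benjamini-Hochberg adjustment over the 9 shares computed. Shares of 1 subunit sum to 100%, so they are not independent. Among the e subunits Atp6v0e2 held 79.4 ± 0.263% in stretched and 78.8 ± 0.521% in static cells (exact permutation p = 0.2, adjusted 0.45; n = 3 each). Atp6v1c2 and Atp6v1g2 held at most 0.236% and 0.231% of their subunits in any library, and Atp6v1c1 and Atp6v1g1 the rest.

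**Figure D3:**
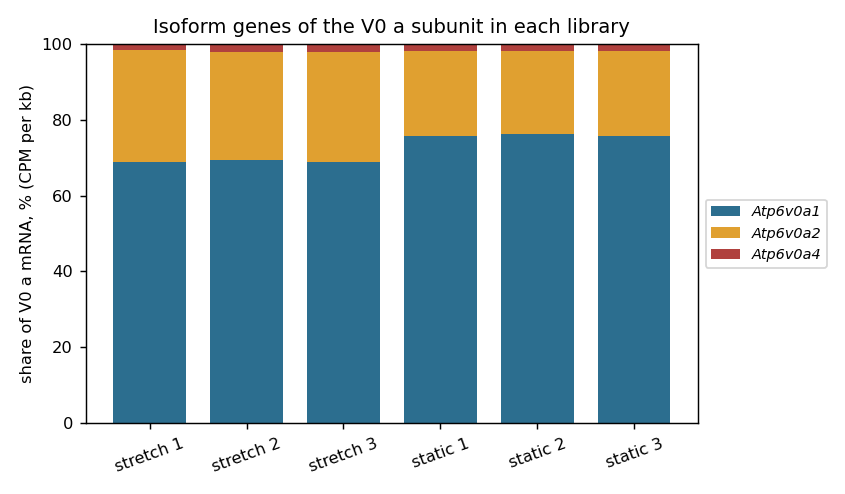
Share of each isoform gene in the summed CPM per kb of the V0 a subunit, in percent, in each library (bars; stretched left, static right). Atp6v0a1 takes 69 to 69.5% in stretched and 75.6 to 76.2% in static libraries, and Atp6v0a4 stays near 2%.

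In Ragulator, the pentamer that anchors the Rag GTPases, 2 of 5 genes fell (40%, against 25.9% of all tested genes) and 0 rose (against 24.9%). Lamtor1 (Entrez Gene 66508; chromosome 7, 101905837 to 101911903), the lipid-anchored subunit that holds the other 4 on the membrane, had 129, 130 and 135 CPM under stretch, against 164, 179 and 163 CPM in static cells. It was 1.28-fold lower (log2 fold change -0.36, SE 0.042, adjusted p = 5.45e-06). Lamtor2 had 59.5, 64 and 63 CPM under stretch and 72.1, 72.7 and 71.3 CPM in static cells (log2 fold change -0.22, SE 0.041, adjusted p = 0.000438). In both genes the groups did not overlap. Lamtor3, the direct partner of Lamtor2, had a log2 fold change of 0.07 with a 95% interval from -0.01 to 0.16, so that the paired subunits differed in what was called; the difference between them was not tested. Lamtor4 (-0.13) and Lamtor5 (0.04) were not called, but without static replicate 3 Lamtor4 was (-0.19, adjusted p = 0.0212). Scaling by library size alone called Lamtor3 higher (0.13, adjusted p = 0.0101).

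Of the Rag GTPases in the rule, Rragc (Entrez Gene 54170; chromosome 4, 123917433 to 123936997) fell, with 143, 143 and 141 CPM under stretch, against 169, 167 and 167 CPM in static cells. The log2 fold change was -0.24 (SE 0.034, adjusted p = 4e-05). Rraga, its partner in the heterodimer, had 66.9, 63.8 and 71.2 CPM under stretch and 70, 76.9 and 68.8 CPM in static cells. The Rraga groups overlapped and it was not called (-0.09, adjusted p = 0.141), but it was without static replicate 3 (-0.13, adjusted p = 0.0479). The paralogs Rragb and Rragd, outside the rule, both rose. Rragd, which can take the place of Rragc, averaged 74.4 ± 3.43 CPM in stretched and 59.6 ± 2.94 CPM in static cells (log2 fold change 0.32, SE 0.047, adjusted p = 5.11e-05). Rragb, which can take the place of Rraga, was at a low level, 2.38 ± 0.197 CPM in stretched and 1.34 ± 0.152 CPM in static cells (log2 fold change 0.82, adjusted p = 0.00114). Estimated counts of such paralogs carry added uncertainty.

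The 3 core genes of mTORC1 had log2 fold changes of 0.03 to 0.11, and 1 of them was called (33.3%, against 50.9% of all tested genes). Mtor (Entrez Gene 56717; chromosome 4, 148448582 to 148557685), the kinase, had 87.5, 92.6 and 85.6 CPM under stretch, against 83.6, 80.3 and 82.7 CPM in static cells. It was called higher by 1.08-fold (log2 fold change 0.11, SE 0.04, adjusted p = 0.0391). Rptor, the substrate-binding subunit, had 121, 110 and 123 CPM under stretch and 113, 112 and 115 CPM in static cells, with overlapping groups. Mlst8, which stabilises the kinase domain, had 25.6, 26.3 and 26.4 CPM under stretch and 25.6, 23.1 and 27.4 CPM in static cells. The 95% intervals of the log2 fold change were -0.03 to 0.15 for Rptor and -0.10 to 0.16 for Mlst8. Rptor was called higher when libraries were scaled by size alone (0.12, adjusted p = 0.0341) and when GC content and length were offset (0.12, adjusted p = 0.0255).

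Around Rheb, 2 subunits of the TSC complex were called in opposite directions. With Rheb counted in, 66.7% of these 3 genes were called, against 50.9% of all tested genes. Tsc2, the subunit with the GTPase-activating domain, had 136, 136 and 138 CPM under stretch, against 150, 150 and 151 CPM in static cells (log2 fold change -0.14, SE 0.034, adjusted p = 0.00374). Tsc1, which stabilises Tsc2, had 68.8, 67.9 and 66 CPM under stretch and 61.8, 60.6 and 65.6 CPM in static cells (log2 fold change 0.11, SE 0.042, adjusted p = 0.0431). Rheb had 88.9, 92 and 85.4 CPM under stretch and 83.9, 88.8 and 87.6 CPM in static cells and was not called (adjusted p = 0.502). The span of Tsc2 overlaps that of Pkd1, which had a mean of 124 CPM and a log2 fold change of -0.19. The gains of Mtor and Tsc1 were at the threshold: in DESeq2 their adjusted p was 0.0856 and 0.104. Leaving out single libraries, the call of Mtor held in 1 of 6 cases (without stretch replicate 3) and that of Tsc1 in 1 of 6 (without static replicate 3), with adjusted p up to 0.199 for Mtor and 0.159 for Tsc1. Tsc2 was not called with library size scaling (-0.08, adjusted p = 0.0678) or with an offset for GC content and length (-0.08, adjusted p = 0.0763).

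GATOR1, which switches off the Rag GTPases when amino acids are short, had 0 of its 3 genes called in either direction by edgeR, DESeq2 or limma-voom, nor at an unadjusted p under 0.05. Of all tested genes edgeR called 50.9%, and 3 genes are too few to set against that share. Depdc5 and Nprl3 had log2 fold changes of 0.01 and -0.02, with 95% intervals of -0.09 to 0.10 and -0.14 to 0.10. Nprl2 had 12.8, 12.6 and 12.9 CPM under stretch, against 11, 11.4 and 12.2 CPM in static cells, without overlap but short of the threshold (0.14, adjusted p = 0.11). Nprl2 was called higher when libraries were scaled by size alone and when GC content and length were offset (0.20 and 0.21, adjusted p = 0.0312 and 0.0278). Its span overlaps that of Cyb561d2, which had a log2 fold change of -0.33.

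Of the 5 genes grouped here as amino acid sensors and their paralogs, 2 fell (40%, against 25.9% of all tested genes) and 0 rose (against 24.9%). Sesn3 (Entrez Gene 75747, chromosome 9, 14276301 to 14326134) is a sestrin, of the family that holds back GATOR2. It had 16.5, 18.6 and 17.2 CPM under stretch, against 22.8, 23.5 and 23.3 CPM in static cells. It was 1.34-fold lower (log2 fold change -0.42, SE 0.061, adjusted p = 4.76e-05). Castor2 (Entrez Gene 80909; chromosome 5, 134099748 to 134141782), a paralog of the arginine sensor Castor1, had 27.5, 27.7 and 29.1 CPM under stretch, against 35.9, 34.3 and 36.1 CPM in static cells (log2 fold change -0.34, SE 0.049, adjusted p = 4.91e-05). In both genes all stretched libraries lay below all static ones. Castor1 and Sesn1 were not called (-0.17 and -0.11, adjusted p = 0.224 and 0.178). Slc38a9, the lysosomal arginine transporter and sensor, had 15.6, 15.7 and 15.5 CPM under stretch, against 16.7, 16.2 and 17 CPM in static cells. Its groups did not overlap and it was not called (-0.10, adjusted p = 0.2), but it was called lower when GC content and length were offset (-0.21, adjusted p = 0.00881) and after thinning all libraries to the smallest (-0.19, adjusted p = 0.0422).

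Other genes of the pathway were counted in 5 lists, to be read against the 24.9% of all tested genes that were higher and the 25.9% that were lower. Among assembly factors and proteins associated with the V-ATPase, 3 of 12 tested genes rose and 3 fell (25% each, as among all genes; median log2 fold change -0.02). Dmxl2, a rabconnectin that promotes joining of V1 to V0, rose to 394 ± 18.2 CPM in stretched, against 325 ± 12.5 CPM in static cells (log2 fold change 0.28, adjusted p = 6.01e-05). Rnasek, a small membrane protein that associates with the pump, fell to 82.4 ± 0.608 CPM in stretched, against 118 ± 3.32 CPM in static cells (log2 fold change -0.51, adjusted p = 4.39e-08). Ncoa7 and Meak7, of the TLDc family that binds the pump, were called lower (-0.14 and -0.23), but neither was in DESeq2, where 1 gene of the list was lower. Both calls were also lost with scaling by library size alone, after thinning, and without stretch replicate 1 or 2, among other alternatives. That of Meak7 was lost with a replicate block as well. Among Rag, GATOR, folliculin and sensor genes outside the rule, 6 of 16 rose (37.5%) and 5 fell (31.2%), with a median of -0.07; in DESeq2 5 were higher and 3 lower. Sec13, of GATOR2 and of the COPII coat, had a log2 fold change of 0.18, and Sesn2, the stress-induced sestrin, one of -1.15. Sestrin mRNA was thus lower for Sesn2 and Sesn3, while Sesn1 was not called.

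Among mTORC1 accessory proteins, mTORC2 subunits and upstream kinases 3 of 18 rose (16.7%) and 5 fell (27.8%), with a median of -0.06. Deptor, an inhibitor bound to mTOR, rose to 54.8 ± 1.22 CPM in stretched, against 36.9 ± 1.69 CPM in static cells (log2 fold change 0.56, adjusted p = 1.52e-07). Akt1s1, the inhibitory mTORC1 subunit PRAS40, fell to 97 ± 2.72 CPM in stretched, against 138 ± 6.28 CPM in static cells (log2 fold change -0.51, adjusted p = 1.45e-07). Ddit4, which acts through TSC against mTORC1, and Prr5, an mTORC2 subunit, had log2 fold changes of -1.73 and -0.34. Of mTORC1 substrates and effectors 4 of 14 rose (28.6%) and 6 fell (42.9%), with a median of -0.07. Eif4ebp1, the translation repressor that mTORC1 inactivates, fell to 146 ± 0.776 CPM in stretched, against 261 ± 2.89 CPM in static cells (log2 fold change -0.84, adjusted p = 1.26e-10). Lpin1, a phosphatidate phosphatase controlled by mTORC1, fell to 11.8 ± 0.671 CPM in stretched, against 22.1 ± 0.445 CPM in static cells. Of the MiT/TFE factors, Tfe3 fell to 60.5 ± 2.15 CPM in stretched, against 84.8 ± 3.98 CPM in static cells (log2 fold change -0.48, adjusted p = 5.41e-07), Mitf rose, as given above, and Tfeb was not called (0.06, adjusted p = 0.372).

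Of 10 genes of BORC and lysosome positioning 4 fell (40%) and 1 rose (10%), with a median of -0.14. Borcs6 and Borcs8, subunits of the complex that moves lysosomes outward, fell to 18.2 ± 1.02 and 23.6 ± 0.872 CPM in stretched, against 29 ± 1.58 and 33.7 ± 1.54 CPM in static cells. Snapin fell by 0.21 on the log2 scale, and Bloc1s2 rose by 0.15 but was not called in DESeq2, which called 0 members of the list higher.

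**Figure D4:**
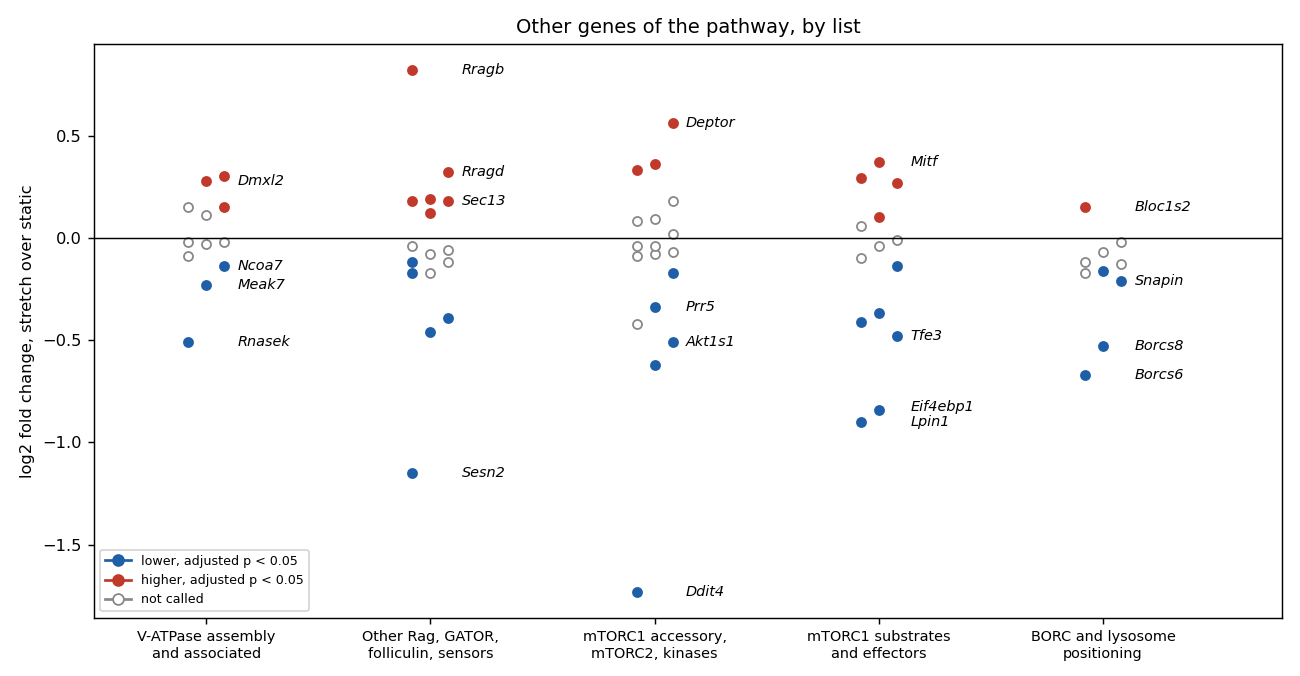
Log2 fold change (stretch over static) of the tested genes of 5 pathway lists outside the rule, 1 point a gene, with the genes named by the rule labelled. Filled points passed an adjusted p of 0.05; points range from Ddit4 at -1.73 to Rragb at 0.82, and each list holds calls in both directions.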

How the data were processed

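Per the labels' protocols, RNA went from Trizol lysates over RNeasy columns to BGI for standard libraries and sequencing. Whether strand was kept is not stated there. The values deposited by the authors were unscaled estimated counts of each gene, written as whole numbers. The submitters' processing notes name Salmon 1.4.0, mm10 and GRCm38 but assign them no role. Each of the 6 columns matched the description of 1 sample. Entrez Gene numbers were named from RefSeq GRCm38.p6 (14875 of 14883 matched). The spans of 11 members overlap that of another gene with deposited counts, and not all of these overlaps are named above.

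Counts were rounded, filtered with filterByExpr (minimum count 10; 12377 genes kept), scaled by TMM and tested by edgeR 4.0.16 (R 4.3.3) with the group alone, two-sided, with Benjamini-Hochberg adjustment over all tested genes. The biological coefficient of variation was 3.6%. CPM used TMM-scaled library sizes; CPM per kb used the longest GENCODE M21 transcript, known for all 43 members. Alternatives were other scalings and filters, DESeq2 1.42.0, limma-voom (limma 3.58.1), glmTreat, a replicate block, thinning to 19469286 counts, an offset for GC content and length, and each library left out.

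Values in every library were given for the 8 called V-ATPase genes with the largest loss at 5 CPM or more, called genes of the mTORC1 machinery, and 7 genes fixed by name (Mtor, Rptor, Mlst8, Rheb, Rraga, Rragc and Slc38a9); per pathway list, 3 called genes in the main direction and 1 in the other. Atp6v1e1, Atp6v0c-ps2, Nprl2, Rragb and Tfeb were described further after their values were seen. The members and lists were chosen with earlier results of these data known.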

Additional observations from a re-analysis of the deposited data

How the results depend on the processing

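The count of 17 lower V-ATPase genes was 15 to 18 in 16 of the 17 alternatives and 4 with glmTreat against 1.2-fold; leaving out single libraries gave 15 to 17. The count of 0 higher ones was 1 without static replicate 3 and 0 in the other 5 cases of leaving out a library. For the mTORC1 machinery the count of 6 lower genes was 2 with glmTreat, 5 with library size only and 7 after thinning. It was 6 to 8 with single libraries left out. The count of 2 higher genes was 5 with library size only, 4 when GC content and length were offset, and 0 with no count filter, DESeq2, glmTreat and the replicate block; it was 0 to 1 with single libraries left out. The block changed no other member's call. Deviations of same-numbered samples of the 2 groups from their group means had correlations of -0.012, 0.005 and -0.077. These show no strong shared deviation. They cannot tell whether such samples shared a culture or a day, which the labels do not state. Without division by length the difference in isoform share was -7.44 points for Atp6v0a1 and 7.38 for Atp6v0a2. Of 25 called members 20 kept their call under every alternative other than glmTreat, and no called member changed direction. In the pathway lists, glmTreat left 0 to 1 higher genes in 5 of 5 lists. It left 5 lower genes among mTORC1 substrates and effectors, and 3 each in the mTORC1 accessory and the Rag and GATOR lists. It left 2 lower genes in the BORC list and 1 in the V-ATPase assembly list. Of all tested genes 5.49% were higher and 7.38% lower with glmTreat. With DESeq2 the lower genes were 3, against 5, in the Rag and GATOR list and 1, against 3, in the V-ATPase assembly list, where the GC and length offset gave 5; library size only gave 6 higher mTORC1 accessory genes, against 3. The called genes Dmxl1 (0.15) and Fnip1 (0.12) had log2 fold changes of -0.09 and -0.04 when GC content and length were offset, neither called, and 10 uncalled genes of the lists changed sign in some alternative, also without a call. Log2 fold changes of uncalled members changed sign as follows: Atp6v0c-ps2 to 0.11 (limma-voom), 0.07 (replicate block), 0.05 (thinned), 0.14 (without stretch replicate 2) and 1.09 (without static replicate 3), with -0.57 to 1.09 over all 6 libraries left out; Atp6v1e1 to -0.02 and -0.01 without stretch or static replicate 3 (range -0.02 to 0.03); Nprl3 to 0.04 (library size), 0.05 (GC and length) and 0.02 (without stretch replicate 2, range -0.06 to 0.02); Depdc5 to -0.02 (GC and length), -0.01 (without stretch replicate 1) and -0.02 (without static replicate 3, range -0.02 to 0.04); Rheb to -0.02 and Lamtor3 to -0.0091 (GC and length); and Mlst8 to -0.03 (without static replicate 2, range -0.03 to 0.09). The cause was not tested. Atp6v1c2 and Atp6v1fnb had at most 8 counts in any library and did not pass the count filter. With no count filter, 18 V-ATPase genes were lower, and no member tested in the main fit gained a call. The added gene was therefore 1 of these 2, on very few counts. No result met the criteria for a closer look: groups of 3 are too small for the test of outlying samples, and there was 1 contrast and no unused data.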
